A study of Bos taurus with 43 samples.

Results

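The genes described here are 7 members of the myosin system in bovine skeletal muscle, namely MYO9B, MYO7B, MYO18B, MYO16, MYLK, MYLIP and MYH15. The first 4 encode unconventional myosins, MYLK and MYLIP encode proteins that act on or bind the myosin light chain, and MYH15 encodes a conventional heavy chain. They were found on the array by the gene name, the description or the gene identifier of each probe, and 9 of the 16426 probes that could be named belonged to them, 2 each for MYLK and MYLIP and 1 for each of the other 5 genes. The named probes covered 14774 genes. The 7 genes were taken from those that the study had named after comparing these same animals, so that none of the values below is independent evidence of the direction that led to their choice.

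RNA of the biceps brachii, a forelimb muscle, was measured in 43 male cattle on single-colour bovine oligonucleotide arrays, with 1 animal per array. The 4 positive animals (P21, P54, P56 and P57), which the labels call suspected of corticosteroid treatment, and the 21 animals of unknown treatment were commercial beef cattle sampled at slaughter, aged 12 to 24 months and mostly Charolais, Limousine or their cross. The study called the 4 animals positive from thymus histology and dexamethasone, a synthetic glucocorticoid, in urine, and neither dose nor time of any treatment was known. Untreated controls were 5 cross-breed bulls (Charolais x Limousine, 18 months, K7 to K12) and 13 Holstein cattle (13 to 18 months, C17 to C48) from controlled experiments. The study set apart unknown animals that lay with the positive ones in a principal component plot from those that lay with the cross-breed controls. The labels do not give these sets, and their membership was read here from the plots, as 10 animals (unknown B) and 11 animals (unknown A). Because that division was made from the expression values themselves, both sets are compared with each other below without a test.

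Several arrays stood apart before any member was looked at. Animal 79 had 40.21% of gene spots well above background and animal 50 had 97.29%. In unknown B, animals 29, 39, 52, 61 and 76 had dim spike-in RNAs, which are added in fixed amounts. The 7 brightest of these averaged 7.76 to 8.43 on the log2 scale, and every other array lay between 11.31 and 13.4. ZFY, a gene of the Y chromosome, read 2.84 to 4.53 on the log2 scale in unknown A (11 animals) and was well above background in 3 of them, although all animals were stated to be male, and its lowest signal in the other sets was 5.47. It was the only 1 of 5 tested probes of Y-linked genes whose mean was at least 2-fold higher in unknown B than in unknown A, with 0 at least 2-fold lower and a median difference of -0.27. All 13 probes of 12 skeletal muscle markers were well above background on all 43 arrays. No slide or scan day held a positive animal and a control, both control breeds, both sets of unknown animals, or an unknown animal and a control, so that condition, breed and batch cannot be told apart in those comparisons. The 5 cross-breed arrays were also read on other scanners, and with other versions of the scanner software, than all other arrays. Only 2 slides mixed such groups, holding all 4 positive animals beside animals 50, 78, 79 and 81 of unknown B.

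Myosins are motors that use ATP to move along actin filaments. Conventional (class II) heavy chains assemble into the thick filaments of muscle and into contractile bundles of other cells, while unconventional classes carry cargo, tether membranes or shape actin protrusions. The regulatory light chain bound to a class II heavy chain is phosphorylated by myosin light chain kinases after calcium has bound calmodulin, and a phosphatase reverses this. In smooth muscle that phosphorylation switches contraction on, and in striated muscle it modulates force. Glucocorticoids are known to act on skeletal muscle and to affect fast fibres more than slow ones.

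Values are normalized log2 signals, so that a difference of 1 is a 2-fold change, and only values of the same probe were compared. A probe was called changed where limma gave an adjusted p under 0.05 over all probes tested together with a change of at least 2-fold. Of the 9 member probes, 8 passed the filter on dim signals. The MYH15 probe did not, since it lay under 4 on 32 arrays. Bulk muscle was measured, in which fewer cells of a type and less RNA per cell cannot be told apart.

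Set against the 5 cross-breed controls, the 4 positive animals were higher at 4 of the 8 member probes and lower at 0, against 14.4% of all 16354 probes that were called higher and 13.8% called lower. These 4 probes belonged to MYO7B, MYO16 and MYLK. The median log2 change was 0.95 over the 8 member probes and -0.03 over all probes. In 5 of the 8 every positive animal lay above every cross-breed control, as it did in 21.7% of all probes. The study had left out the Holstein animals when it compared both sets. Under the main normalization they stood closer to the positive animals at the 8 member probes tested. MYH15, which the filter left out, did not follow this, with fitted changes of 4.17 against cross-breed and 4.60 against Holstein animals. Against the Holstein animals, 1 of 8 member probes (MYO7B) was higher in the positive animals and 0 were lower, beside 8.4% and 9.4% of all probes, and the median change was 0.16 against -0.05 over all probes. Between both control breeds, 3 member probes (MYO16 and both of MYLK) were higher in the Holstein animals and 0 were lower, beside 10.9% and 9.69% of all probes. These were also the 3 member probes whose ranges did not overlap between the breeds, a pattern that 8.1% of all probes had in this direction. The comparisons share their control or positive arrays and are given side by side only.

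**Figure D1:**
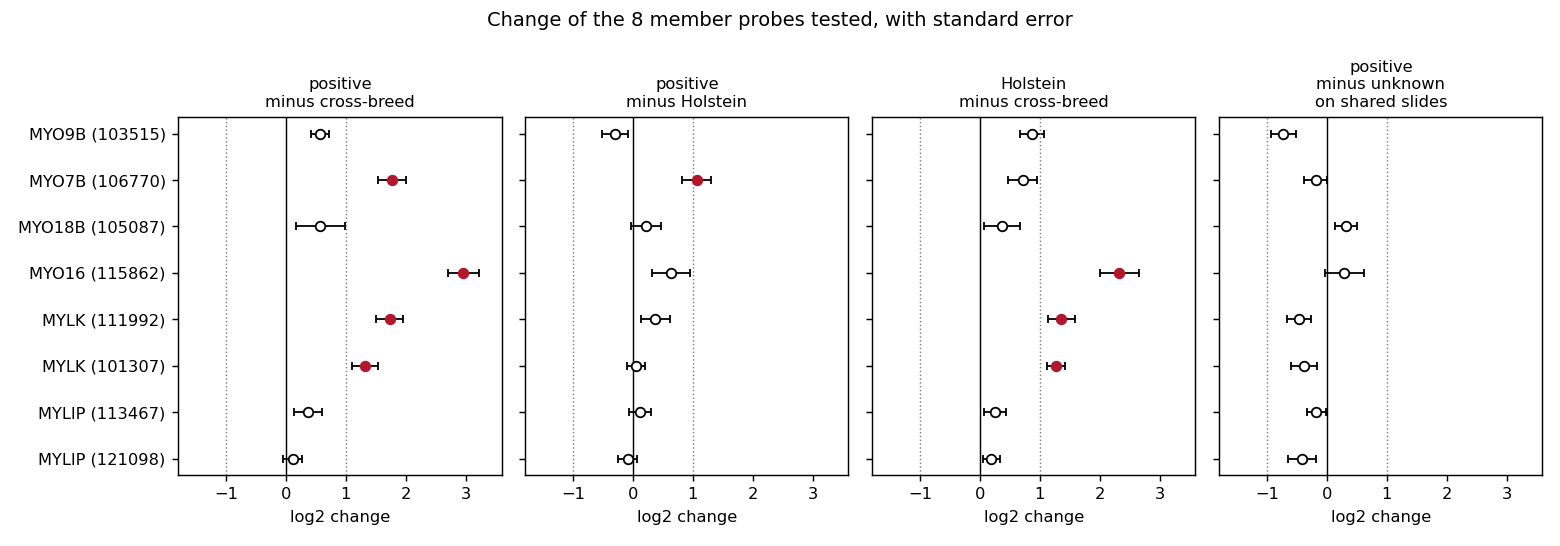
Log2 change of the 8 member probes tested (rows, with the last 6 digits of the probe name) in 4 comparisons, with bars of 1 standard error from limma. Filled points were called, dotted lines mark 2-fold, and the filled points number 4, 1, 3 and 0 from left to right.

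**Figure D2:**
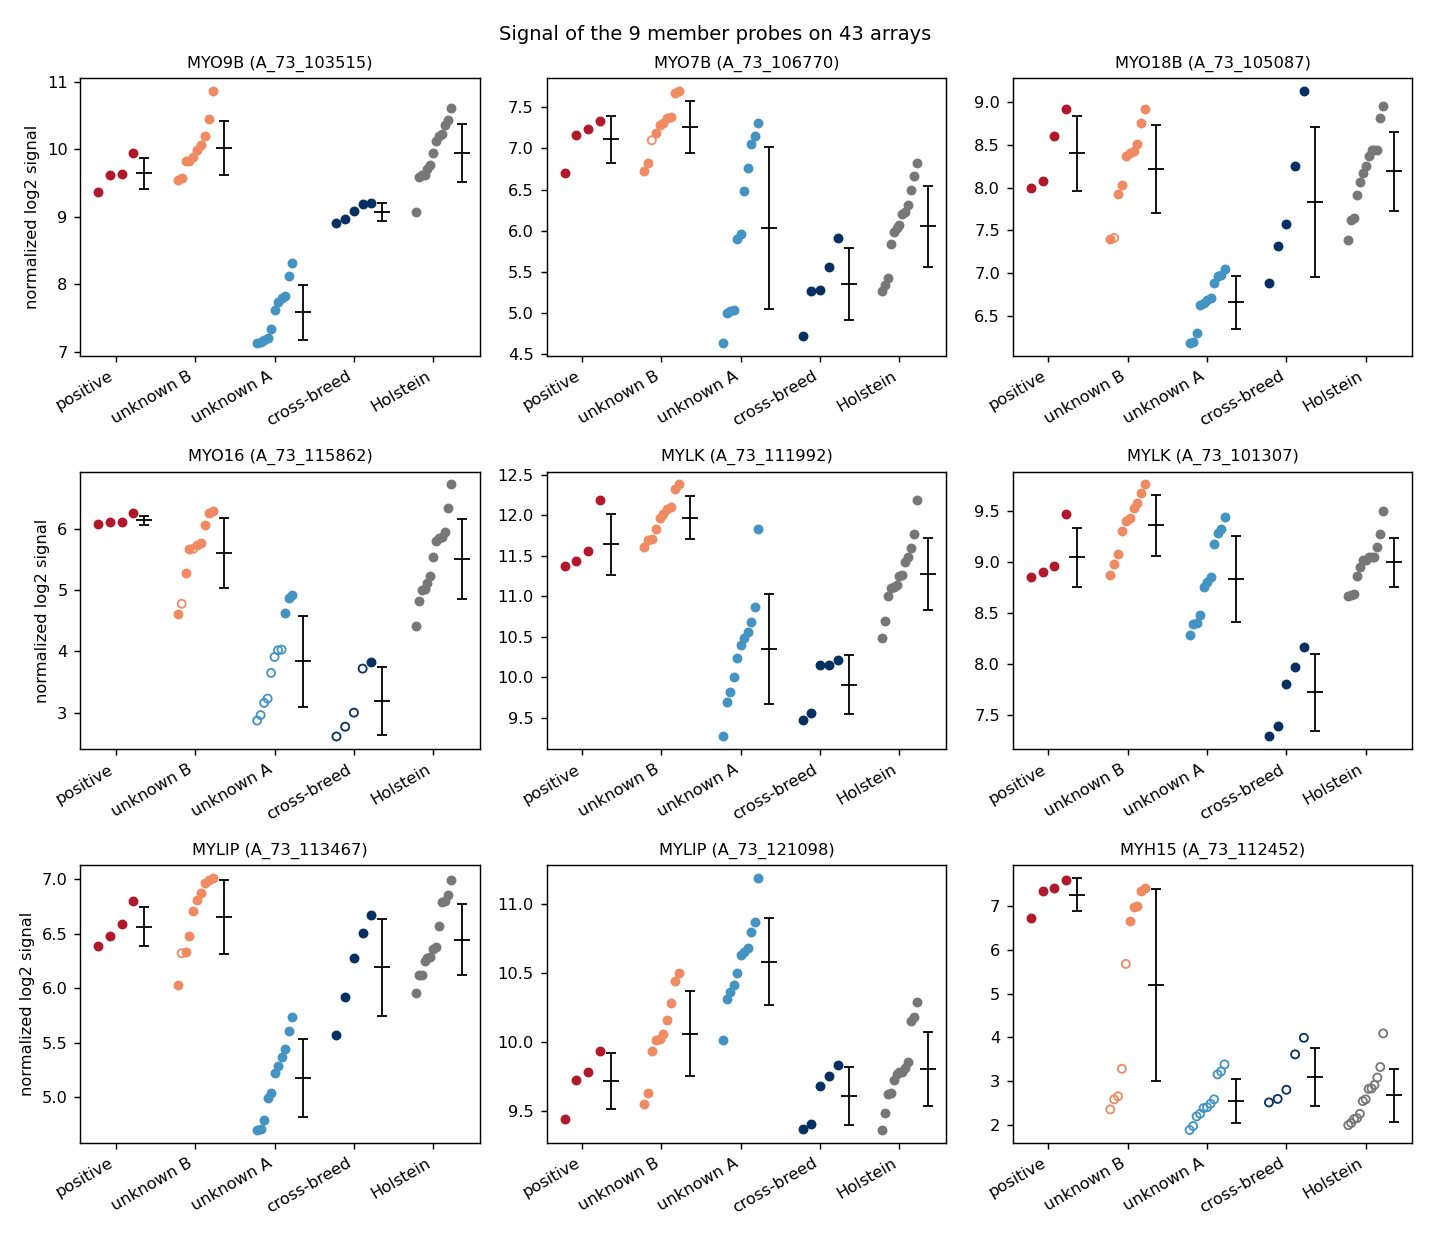
Normalized log2 signal of the 9 member probes on every array, in 5 sets of 4, 10, 11, 5 and 13 animals, with the mean and SD beside each set. Open points were not well above background. MYO9B, MYO18B and the first MYLIP probe are lowest in unknown A, MYO16 and both MYLK probes have their lowest median in the cross-breed controls, and the second MYLIP probe has its highest in unknown A.

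MYO9B encodes an unconventional myosin of class IX. Its probe (A_73_103515) was well above background on all 43 arrays. It read 9.62 in P21, 9.63 in P54, 9.94 in P56 and 9.37 in P57, against 9.09, 9.21, 8.96, 9.19 and 8.9 in K7, K8, K10, K11 and K12. The ranges did not touch, and the change of 0.57 (standard error 0.15, limma adjusted p = 0.00981) stayed under 2-fold. Holstein animals ran from 9.07 to 10.61 with a median of 9.94, 0.87 above the cross-breed controls (standard error 0.20, adjusted p = 0.00149). The set that stood apart was unknown A, at 7.13 to 8.31 with a median of 7.62, below all 5 cross-breed controls and below every animal of unknown B (9.55 to 10.86, median 9.94). With pairwise cyclic loess, in which each array is fitted to each other one and not to their mean, the change between positive and cross-breed animals was -0.19 (adjusted p = 0.31).

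MYO7B is known from the brush border of intestine and kidney, where it anchors links between microvilli. The probe (A_73_106770) read 7.24, 6.7, 7.34 and 7.17 in P21, P54, P56 and P57. In K7, K8, K10, K11 and K12 it read 5.91, 5.27, 4.72, 5.26 and 5.56, so that all positive animals lay above all cross-breed controls. The change was 1.77 (standard error 0.24, adjusted p = 0.000178), or 3.41-fold, and 0.77 with normexp background correction, under 2-fold. It was the only one of the 8 member probes that passed the filter to be called against the Holstein animals (5.26 to 6.82, median 6.07), with a change of 1.06 (standard error 0.25, adjusted p = 0.00348) and ranges that overlapped. That call was lost without P56 (change 0.98, adjusted p = 0.018), with all 43 arrays in 1 fit (adjusted p = 0.0625), with the authors' normalized values (0.93) and with normexp background correction (0.35). It also rested on 1 spot of Holstein animal C22, which the scanner software had marked as an outlier. The other spot of C22 gave 5.98 and both together 10.62, and with this spot kept the change was 0.70 (adjusted p = 0.418).

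MYO18B is expressed in striated muscle, where it is required for sarcomeres to form. It was well above background on every array but that of animal 79. Its probe (A_73_105087) read 8.08, 8, 8.92 and 8.6 in the positive animals and 7.57, 8.25, 7.32, 9.13 and 6.88 in the cross-breed controls. Both groups overlapped, with K11 the highest of all 9 animals, and the difference of 0.57 (standard error 0.41, adjusted p = 0.276) was not called. Holstein animals ran from 7.39 to 8.95 around a median of 8.25. Unknown A, at 6.18 to 7.05, lay below unknown B, at 7.4 to 8.92.

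MYO16 is known chiefly from brain, where it takes part in phosphoinositide 3-kinase signalling. Its probe (A_73_115862) was dim, and well above background on 29 of 43 arrays. The positive animals read 6.26, 6.09, 6.12 and 6.11, all well above background. The cross-breed controls read 2.77, 3, 2.61, 3.72 and 3.83, and of these only K12 was well above background. The fitted change was 2.96 (standard error 0.26, adjusted p = 1.26e-05), read against a group mostly at background. With each cross-breed signal that was not well above background raised to the lowest signal that was so on its array, the difference was 1.9, or 3.73-fold. The fitted change was 0.81 (adjusted p = 0.00306) with normexp background correction and 0.50 (adjusted p = 0.172) with pairwise cyclic loess, and the call was lost under both. The Holstein animals, all 13 well above background at 4.42 to 6.73, were higher than the cross-breed controls by a fitted 2.33 (standard error 0.32, adjusted p = 1.27e-05), by 1.27 with the dim cross-breed signals raised in the same way, and by 0.63 with normexp background correction. Against the Holstein animals the positive ones differed by 0.63 (standard error 0.32, adjusted p = 0.134), a value that turned to -1.92 (adjusted p = 6.66e-06) with pairwise cyclic loess and rose to 1.79 (adjusted p = 0.000639) with 75th percentile scaling.

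MYLK encodes the myosin light chain kinase of smooth muscle and non-muscle cells, and from an internal start also telokin, a short smooth muscle protein. One probe (A_73_111992) carries the gene's name and the other (A_73_101307) is described as transcript variant 5, and both were well above background on all 43 arrays. The first read 11.56, 11.38, 12.19 and 11.43 in P21, P54, P56 and P57 and 10.15, 10.15, 9.56, 10.22 and 9.47 in K7, K8, K10, K11 and K12. Every positive animal lay above every cross-breed control, by 1.73 on average (standard error 0.23, adjusted p = 0.000171), or 3.32-fold. Its change lay between 1.55 and 1.85 and was called under all 20 alternatives of processing or left-out animals. Holstein animals ran from 10.49 to 12.19 with a median of 11.25, also above every cross-breed control, by 1.36 (standard error 0.22, adjusted p = 7e-05), and this was called under all 16 alternatives. Positive and Holstein animals overlapped and differed by 0.37 (standard error 0.24, adjusted p = 0.238).

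The second MYLK probe was likewise lowest in the cross-breed controls. It read 8.96, 8.85, 9.47 and 8.9 in the positive animals and 8.17, 7.97, 7.39, 7.8 and 7.29 in the cross-breed controls, again without overlap. The change was 1.32 (standard error 0.22, adjusted p = 0.000658) and fell to 0.47 (adjusted p = 0.127) with pairwise cyclic loess. Holstein animals (8.67 to 9.5, median 9.02) exceeded the cross-breed controls by 1.27 (standard error 0.15, adjusted p = 3.44e-06), which was called under all 16 alternatives. Both probes correlated with Pearson's r = 0.88 over the 11 animals of unknown A, 0.706 over the 10 of unknown B and 0.716 over the 13 Holstein animals. These points share the normalization of whole arrays, and r is given as a description.

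Smooth muscle, endothelial and adipocyte markers were set beside MYLK, since vessels and fat lie within muscle. Between positive and cross-breed animals, 1 of 11 smooth muscle probes was higher (ACTA2, change 1.11) and 3 were lower (LMOD1, ACTG2 and 1 of 2 SYNPO2 probes), while 6 of 9 endothelial and 4 of 5 adipocyte probes were higher and none of either list was lower. EMCN, an endothelial surface protein, was higher by 1.82. LPL, the lipoprotein lipase of adipocytes and muscle, was higher by 1.70, below the median change of 2.62 over the 5 adipocyte probes. Between Holstein and cross-breed animals, 0 of 11 smooth muscle probes were higher and 2 lower (SMTN and the same SYNPO2 probe), 0 of 9 endothelial probes were called in either direction, and 4 of 5 adipocyte probes were higher. The log2 of the summed signal of the smooth muscle list was 15.73 ± 0.18 (SD, n = 4) in positive, 15.5 ± 0.07 (n = 5) in cross-breed and 15.29 ± 0.29 (n = 13) in Holstein animals. That of the endothelial list was 13.6 ± 0.34, 12.44 ± 0.35 and 12.28 ± 0.33, and that of the adipocyte list 13.55 ± 0.2, 11.67 ± 0.42 and 12.91 ± 0.44, in the same order. Such a sum is weighted to the brightest probes, with SMTN the most abundant of the smooth muscle list. The mean log2 signal of that list was 10.59 ± 0.21 in positive, 10.89 ± 0.13 in cross-breed and 10.52 ± 0.24 in Holstein animals. It was 9.78, 8.69 and 8.71 for the endothelial and 8.71, 5.8 and 8.5 for the adipocyte list. ADIPOQ, which encodes the adipokine adiponectin, was well above background in 4 of 4 positive, 8 of 13 Holstein and 0 of 5 cross-breed animals. Of 8 fibroblast probes, 1 was higher and 4 lower in positive than in cross-breed animals, 0 higher and 6 lower than in Holstein animals, and 4 higher and 0 lower in Holstein than in cross-breed animals. Of 10 leukocyte probes, 2 were higher and 1 lower in positive than in cross-breed animals, and 1 higher and 5 lower with pairwise cyclic loess. Against the Holstein animals, 4 of 9 endothelial and 2 of 11 smooth muscle probes were higher in the positive ones and 0 of either list lower. Of the adipocyte probes 0 were called there, and of the leukocyte probes 0 were higher and 1 lower (0 and 4 with pairwise cyclic loess). Of the 13 skeletal muscle probes, 1 was higher and 4 lower in positive than in cross-breed animals (0 and 7 with pairwise cyclic loess), and 0 were higher and 3 lower than in Holstein animals. The median change from cross-breed to positive animals was -0.09 for the smooth muscle, 1.17 for the endothelial, 2.62 for the adipocyte, -0.97 for the fibroblast, 0.07 for the leukocyte and -0.16 for the skeletal muscle list, beside -0.03 over all probes. With pairwise cyclic loess the leukocyte and skeletal muscle medians were -0.6 and -1.06 and that of the smooth muscle list 0.33, beside -0.25 over all probes. The part of vessels, fat or other cells in the MYLK values was not tested.

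**Figure D3:**
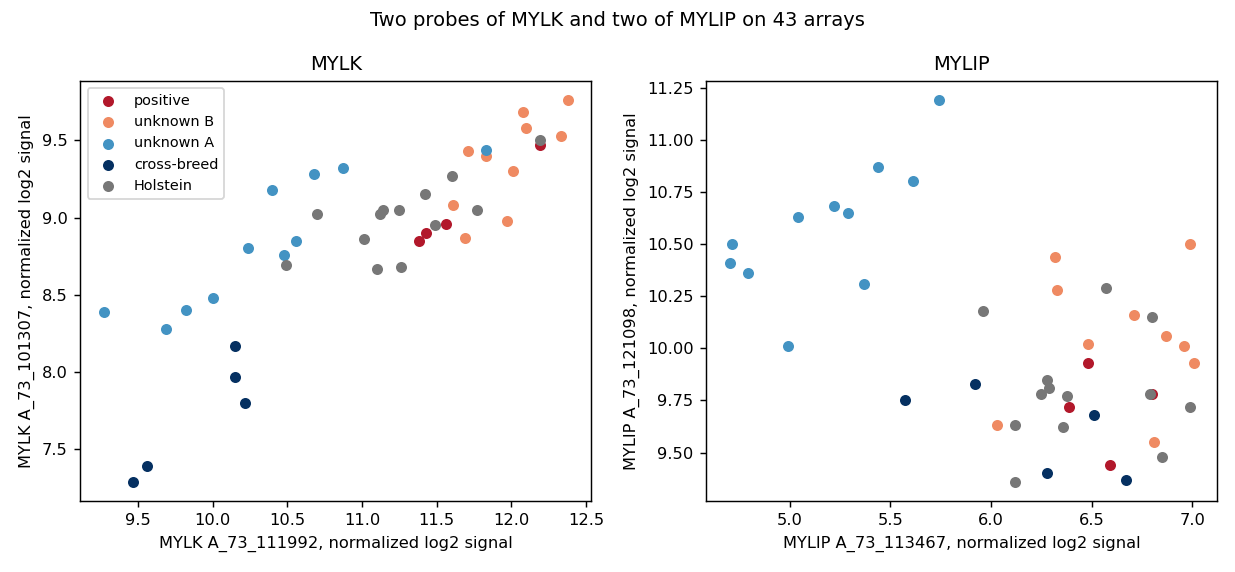
Normalized log2 signal of the 2 probes of MYLK (left) and of MYLIP (right) on 43 arrays, 1 point an animal, coloured by set. The MYLK probes rise together, with the cross-breed controls at the lower end of the vertical axis, and in the MYLIP plot unknown A sits apart, low on the horizontal and high on the vertical axis.

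MYLIP encodes a ubiquitin ligase, also called IDOL, that was named for its binding to the myosin regulatory light chain and is best known for directing the LDL receptor and its relatives to degradation under control of the liver X receptors. Its 2 probes disagreed. The first was named by its gene identifier, and the second by its description, with a sequence record in place of a gene name. Whether both read the same transcript was not tested. The first (A_73_113467) read 6.39, 6.48, 6.8 and 6.59 in the positive animals and 6.28, 6.51, 5.57, 6.67 and 5.92 in the cross-breed controls. The groups overlapped and differed by 0.37 (standard error 0.23, adjusted p = 0.193). Only with pairwise cyclic loess was it called (1.17, adjusted p = 0.0295). The second probe (A_73_121098) read 9.72, 9.93, 9.78 and 9.44 against 9.4, 9.68, 9.75, 9.37 and 9.83, a difference of 0.11 (standard error 0.16, adjusted p = 0.601).

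In the unknown animals both MYLIP probes ran in opposite directions. At the first, unknown B (6.03 to 7.01) lay wholly above unknown A (4.7 to 5.74), by 1.48 between the means. At the second, unknown B (9.55 to 10.5) averaged 0.52 below unknown A (10.01 to 11.19), with overlap. Unknown A held the highest median of the second probe among all 5 sets (10.63) and the lowest of the first (5.22). The opposed directions held under all 8 alternatives, with differences from 0.49 to 2.15 at the first probe and from -0.66 to -0.44 at the second. Pearson's r between both probes was -0.523 over all 43 arrays but 0.685 within unknown A, 0.0883 within unknown B and 0.0303 within the Holstein animals.

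Genes of the MYLIP pathway were mostly not called. Of 11 probes for liver X receptors, lipoprotein receptors and their partners, 0 were higher and 1 lower between positive and cross-breed animals, and 0 changed either way against the Holstein animals. The lower gene was ABCG1, a cholesterol exporter, at 6.85 ± 0.15 (SD, n = 4) against 8.23 ± 0.25 (n = 5). Its change of -1.38 (standard error 0.16, adjusted p = 7.49e-05) became -0.30 (adjusted p = 0.339) with pairwise cyclic loess. ABCG1 was also lower in Holstein than in cross-breed animals, by 1.77 on the log2 scale on average (-1.77, adjusted p = 2.55e-08). ABCA1 was called higher there, but was well above background in 1 of 13 Holstein and 0 of 5 cross-breed animals, so that no fold is given.

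MYH15 encodes a heavy chain of the class II family that is little expressed in limb muscle and is known from the muscles of the eye and from spindle fibres. Its probe (A_73_112452) was either bright or near background. It read 7.42, 7.34, 7.59 and 6.72 in P21, P54, P56 and P57, all well above background. In the cross-breed controls it read 2.59, 2.51, 3.99, 2.8 and 3.61, in the 13 Holstein animals 1.99 to 4.09 (median 2.58), and in the 11 animals of unknown A 1.88 to 3.38 (median 2.4), and none of these 29 signals was well above background.

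Unknown B was divided at MYH15. Animals 50, 60, 61, 78 and 81 read 6.66, 6.99, 7.01, 7.36 and 7.41 and were well above background, and animal 79 read 5.68 but was not. Animals 29, 39, 52 and 76 read 2.65, 2.58, 2.35 and 3.28, within the range of the controls. On the 2 slides that hold the positive animals, MYH15 was well above background on 7 of 8 arrays, and animal 79 was the exception. One further slide held both kinds, with animals 60 and 61 bright and animal 52 dim. The 4 dim animals were among the 5 with low spike-in signals, and the fifth, animal 61, was bright. The share of gene spots well above background also differed, at 74.33% to 97.29% on the 5 bright arrays of unknown B and 74.95% to 89.4% on those of the positive animals, against 63.64% to 66.91% on the 4 dim arrays of unknown B. It was 62.34% to 73.65% on the arrays of both control breeds and 66.32% to 79.19% in unknown A, where MYH15 was dim throughout. The part of the slide, of the spike-in signal or of this share in the pattern was not tested.

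**Figure D4:**
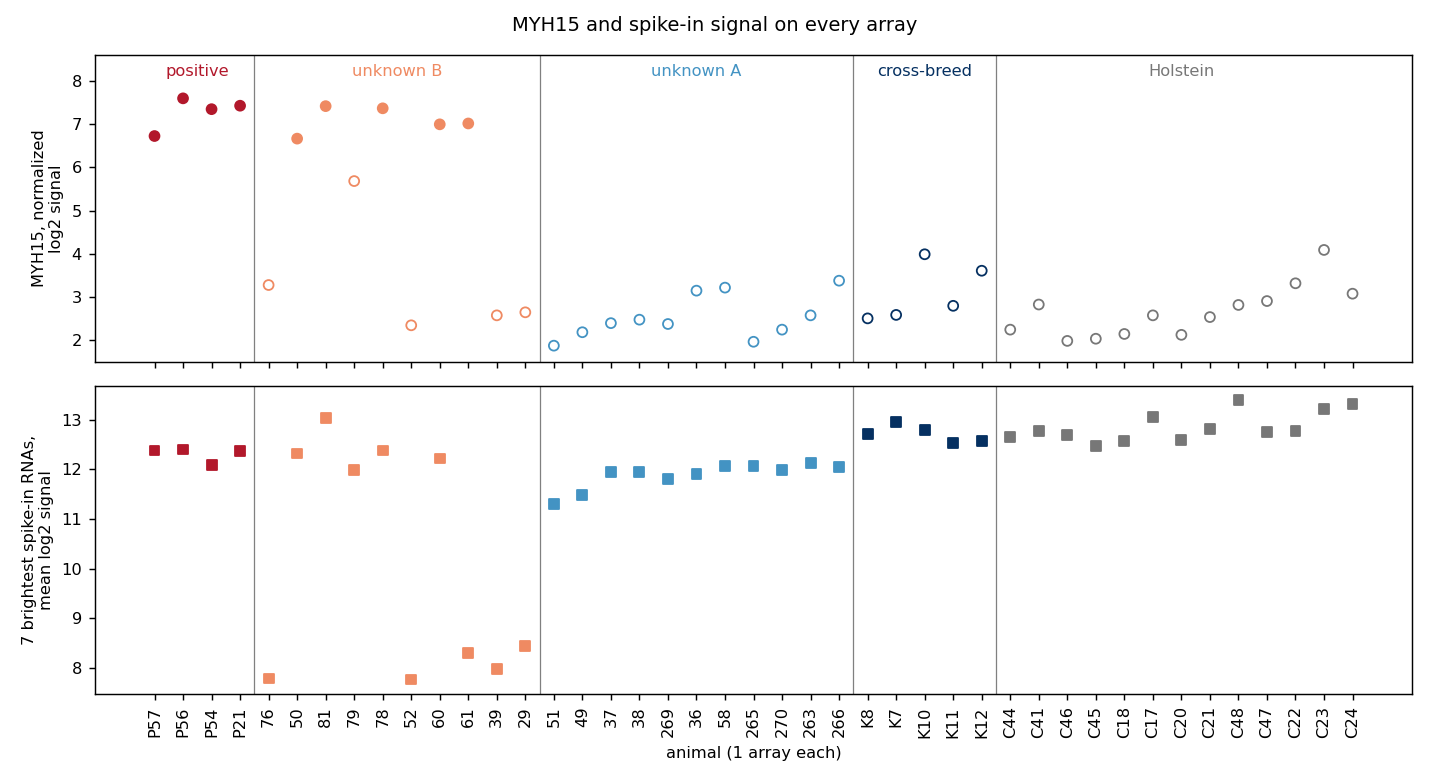
Normalized log2 signal of the MYH15 probe (upper panel) and the average over the 7 brightest spike-in RNAs on the log2 scale (lower panel) on each of 43 arrays, ordered by set. Open circles were not well above background. The 4 positive animals and animals 50, 60, 61, 78, 79 and 81 lie between 5.68 and 7.59 and all others between 1.88 and 4.09, and animal 61 is bright for MYH15 with a low spike-in signal.

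As no control was well above background, the change in MYH15 is a lower limit, in which each dim signal was raised to the lowest signal that was well above background on its own array. By this limit, which holds for the main normalization, MYH15 was at least 8.27-fold higher in the positive animals than in the cross-breed controls (adjusted p = 5.01e-06 in the fit without the filter on dim probes) and at least 8.48-fold higher than in the Holstein animals (adjusted p = 1.46e-09). The fitted log2 changes of 4.17 and 4.60 moved between 1.40 and 5.34 and between 1.18 and 6.19 over 5 alternatives, the lowest of which lie under these limits, and all were called. Of 21464 other probes, 501 (2.33%) followed MYH15 with Pearson's r over 0.9 across the 43 arrays. Of these, 480 failed the same filter on dim signals, and 61 of the 501 (12.2%) were described as olfactory receptors, as were 213 of all 5119 probes that failed the filter (4.16%).

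On the 2 slides that hold both kinds of animal, positive and unknown animals (50, 78, 79 and 81) were compared with the slide as a block. These unknown animals all belong to unknown B, which was set apart for lying with the positive ones on these same expression values. The outcome of this test therefore depends on that choice. Of 8 member probes 0 were called higher and 0 lower, as were 0% and 0% of all 16354 probes. At an unadjusted p under 0.05, limma counted 1873 of all probes and 2 of the 8 member probes. They were MYO9B, where the positive animals lay below all 4 unknown animals (10.19, 10.86, 10.44 and 9.99 in animals 50, 78, 79 and 81) by 0.73 on average (-0.73, standard error 0.21, adjusted p = 0.283), and the first MYLK probe (-0.47, standard error 0.20, adjusted p = 0.425). Within each slide, the MYO9B difference was -0.43 and -1.03, and that of MYLK -0.38 and -0.55. MYH15 differed by 0.49 (standard error 0.41, adjusted p = 0.726 without the filter), and its sign turned under 4 of 5 alternatives. The median change was -0.29 over the 8 member probes and 0.02 over all probes. Unknown and control animals shared no slide, and the comparison of these on shared slides could not be made.

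Between unknown B and unknown A, the mean was at least 2-fold higher in unknown B at 6 of 8 member probes and at least 2-fold lower at 0, beside 14.5% and 11.4% of all probes. The study named the genes for this direction, so that the count is a description. Ranges did not overlap at 3 member probes, all higher in unknown B (MYO9B, MYO18B and the first MYLIP probe), beside 6.21% of all probes higher and 5.49% lower without overlap. The differences between the means were 2.44 for MYO9B, 1.62 for the first MYLK probe, 1.56 for MYO18B and 1.23 for MYO7B. The second MYLK probe differed by 0.52. Without the 5 animals of low spike-in signal these values were 2.73, 1.76, 1.39, 1.29 and 0.62. MYO16 was well above background in 8 of 10 animals of unknown B and 3 of 11 of unknown A, and with the dim signals of unknown A raised as above it differed by 1.45. MYH15 was well above background in 5 of 10 animals of unknown B and 0 of 11 of unknown A. With the signals of unknown A raised and those of unknown B taken as measured, dim ones included, the means differed by 2.64-fold, and by 8.14-fold without the 5 animals of low spike-in signal.

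Unknown A was not uniform. By the numbers that the labels give the animals, 6 ran from 36 to 58 and 5 from 263 to 270. At 3 of 8 member probes the first 6 lay wholly above the other 5, and at 0 wholly below, beside 9.39% and 8.95% of all probes. MYO7B read 5.96 to 7.31 in the 6 animals and 4.63 to 5.9 in the 5, MYO9B 7.62 to 8.31 and 7.13 to 7.34, and the second MYLIP probe 10.63 to 11.19 and 10.01 to 10.5. MYO7B in the 6 animals thus overlapped with unknown B (6.73 to 7.7), while in the 5 it lay within or near the cross-breed range (4.72 to 5.91). Animals of both number ranges shared 1 slide, on which MYO7B read 5.96 in animal 36, 7.05 in animal 58 and 5.02 in animal 269. Animals 37, 38, 49 and 51 lay together on another slide, and animals 263, 265, 266 and 270 on yet another. For these animals number and slide cannot be told apart. ZFY did not follow the division by number (2.84 to 4.34 and 2.9 to 4.53), whereas MYH4, a fast heavy chain, did, at 10.66 to 12.22 in the 6 animals and 8.21 to 9.31 in the 5.

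Among the other unconventional myosins, 2 of 19 probes were higher in positive than in cross-breed animals and 1 was lower, with a median change of -0.14. The balance turned with quantile normalization (1 higher, 5 lower), pairwise cyclic loess (3 higher, 6 lower) and the authors' normalized values (1 higher, 2 lower). It was even with normexp background correction (1 and 1 of 22 probes) and stayed the same with 75th percentile scaling (2 higher, 1 lower). MYO3B, a myosin with a kinase domain, was at least 2.99-fold higher (adjusted p = 1.48e-06), with 4 of 4 positive and 0 of 5 cross-breed signals well above background, but its fitted change was 0.71 with normexp background correction. In the Holstein animals it ran from 2.01 to 8.18, with 3 of 13 well above background and higher than every positive animal (5.35 to 6.04), and positive and Holstein animals were not called different (1.78, adjusted p = 0.151). In unknown B it was well above background in the same 5 animals as MYH15. For MYO5B, a vesicle motor, the change was 1.06 (standard error 0.22, adjusted p = 0.00264), and it stayed under 2-fold with 3 of 5 other normalizations. MYO18A, the paralogue of MYO18B, went the other way, at 13.69 ± 0.33 (SD, n = 4) against 15.04 ± 0.19 (n = 5), a change of -1.35 (standard error 0.18, adjusted p = 0.00018). It was also lower in Holstein than in cross-breed animals (-1.8, standard error 0.26, adjusted p = 2.31e-05). MYO6, the motor that moves toward the minus end of actin, was lower in positive than in Holstein animals (-1.93, standard error 0.27, adjusted p = 3.84e-05) and was the only 1 of 19 called there, with 2 of 4 positive signals well above background. Other normalizations called 0 to 1 of these probes higher and 0 to 6 lower, with 22 and not 19 probes tested under normexp background correction. With the dim positive signals raised to the limit of their arrays, Holstein animals were higher by 1.79. Its other probe, well above background in both groups, read 8.36 ± 0.42 (SD, n = 4) in positive and 8.62 ± 0.3 (n = 13) in Holstein animals and was not called (-0.26, adjusted p = 0.3).

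Of the other class II heavy chains, 0 of 10 probes were higher and 5 lower in positive than in cross-breed animals, with a median change of -0.45. Both MYH1 probes, for a heavy chain of fast fibres, were among the 5. One of them (A_73_102524) read 15.25 in P21, 8.96 in P54, 11.24 in P56 and 10.42 in P57, against 15.34 to 16.06 in the cross-breed controls, a change of -4.25 (standard error 0.99, adjusted p = 0.00475). P21 lay closest to the controls at both MYH1 probes, but at the other one (A_73_117636) it read 13.64 against 16.4 to 17.68 in the controls. Genes of this cluster are near-identical, and reads of one by the probe of another were not tested. The others were MYH14, MYH9 and MYH10 of non-muscle myosin, of which MYH14 (-1.45, standard error 0.21, adjusted p = 0.000262) was called under every other normalization and MYH9 and MYH10 were each lost under 2. Against the Holstein animals 3 of 10 were higher (MYH3 by 2.64, MYH4 by 1.84 and the smooth muscle heavy chain MYH11 by 1.10) and both MYH1 probes were lower.

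Among 10 myosin light chain probes, 3 were higher and 1 lower in positive than in cross-breed animals (2 and 2 with pairwise cyclic loess, 1 and 1 with quantile normalization), with a median change of -0.04. MYLPF, the regulatory light chain of fast fibres, was lower by 3.34 on average (-3.34, standard error 0.36, adjusted p = 4.57e-05) and also lower than in the Holstein animals (-4.16, standard error 0.24, adjusted p = 1.25e-09). MYL3, the slow essential light chain, was higher (change 2.09, standard error 0.29, adjusted p = 0.000231). MYL6B and MYL2 were higher by 1.14 and 1.10, and with pairwise cyclic loess these changes were 0.01 and -0.08, and with quantile normalization they stayed under 2-fold.

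Of 20 probes for other genes of light chain phosphorylation and its reversal, 1 was higher and 3 lower in positive than in cross-breed animals, with a median change of -0.02. DAPK2, a calmodulin-dependent death-associated kinase, was lower (6.86 ± 0.3, SD, n = 4, against 9.03 ± 0.3, n = 5, change -2.17, standard error 0.20, adjusted p = 1.66e-05), as it was in Holstein animals (-1.83, adjusted p = 1.38e-06). PPP1R14C, an inhibitor of protein phosphatase 1, was lower than in cross-breed (-2.45, standard error 0.47, adjusted p = 0.00157) and Holstein animals (-1.96, standard error 0.31, adjusted p = 0.000118). MYLK4, a relative of MYLK, was lower by 1.19 on average (-1.19, adjusted p = 0.00168), the direction opposite to MYLK, and stayed under 2-fold with 75th percentile scaling (-0.97) and normexp background correction (-0.56). CDC42BPA, which encodes a protein kinase, was higher at 1 of its probes (change 1.65, standard error 0.36, adjusted p = 0.00336), which was lost with pairwise cyclic loess (adjusted p = 0.0782) and with normexp background correction (0.58), and its other probe read 8.47 in positive and 8.48 in cross-breed animals.

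For each member probe, the named probes of other genes that followed it most closely over the 43 arrays were ranked by Pearson's r. The points share normalization, slides and the differences between sets. For MYO9B these were AGPAT1 (0.954), KCNRG (0.94) and ULK2 (0.938), and for MYO16 CEP41 (0.949), GID4 (0.948) and KIF9 (0.908). DLC1 came first for the first MYLK probe (0.907) and second for the other (0.849), where RAMP2 led (0.872). MYO7B was followed by YDJC (0.875), B3GNT3 (0.866) and RGS5 (0.862), and MYO18B by PHF2 (0.871), PHF8 (0.859) and FHOD3 (0.853). The 2 MYLIP probes had no gene in common among their first 3, with RIOK1 (0.898), TNNT1 (0.882) and DCHS1 (0.88) for the first and LRCH3 (0.827), PDCL (0.795) and CHCHD2 (0.79) for the second.

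**Figure D5:**
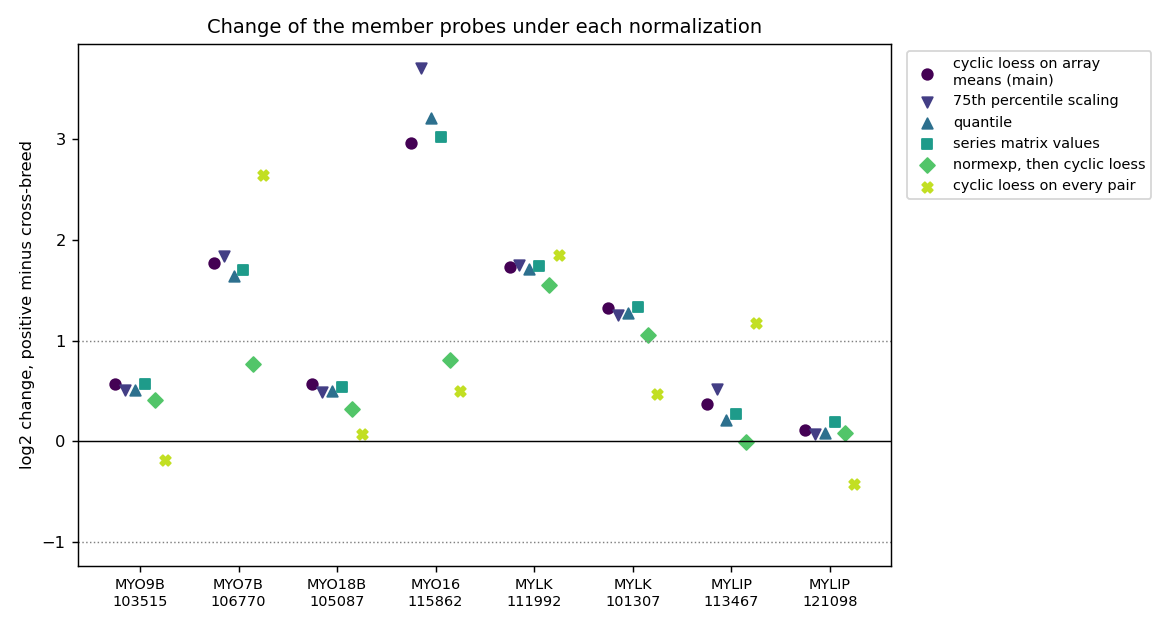
Log2 change of the 8 member probes between 4 positive and 5 cross-breed animals (vertical axis) under the main normalization and 5 others, with dotted lines at 2-fold. The first MYLK probe stays between 1.55 and 1.85, and MYO16 falls from 2.96 to 0.81 and 0.50 under 2 of them.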

How the data were processed

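The authors deposited 1 scanner file per array, with a processed intensity for each of 44407 spots (42990 of 21475 gene probes, mostly 2 spots each) from which its software had already subtracted background and spatial trends, and flags for signals well above background, saturated or outlying. Per the labels, RNA was labelled with Cyanine 3. The genome build behind the probes is not given in the sources used here, and no coordinates or sequences are printed. Here log2 intensities of all 43 arrays were brought together by cyclic loess, each against the mean of the arrays (limma 3.58.1, R 4.3.3), and averaged over the spots of a probe, without spots marked as outliers. The authors' own normalized values, deposited on a linear intensity scale, were log2-transformed and served as an alternative. A probe was left out where it lay under 4 on at least 30 arrays, which left 16354. Linear models with limma's empirical Bayes test and Benjamini-Hochberg adjustment used the arrays of the groups compared, with the slide as a block for positive against unknown animals. The test was checked on simulated data. These held no batch difference that followed the groups, so that the check does not bear on batch. Probes were named by description, gene name or gene identifier, with gene identifiers and older symbols matched to RefSeq gene names. The 7 genes and the lists beside them were chosen with earlier results of these data known. All member probes were named. From the other lists some genes were named as examples, not always those with the largest changes. From the fibroblast, leukocyte and skeletal muscle lists no gene was named, and only counts and medians were given. Replicates were separate animals, and the number of arrays limits the precision.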

Additional observations from a re-analysis of the deposited data

Results flagged for a closer look

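MYO16 in positive animal P21, with a log2 signal of 6.26, stood apart from the other 3 positive animals at 6.09 to 6.12, since its gap to the nearest of them was 84% of the whole range of the group. All 4 values lay within a range that is small beside the other sets. Of 27 sets of values examined in this way (9 probes in the positive, cross-breed and unknown B animals), 1 stood out, and chance alone picks about 1 in 20.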

How the results depend on the processing

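Over 552 changes of member probes recomputed under alternatives fixed with the design, 523 kept their direction and their side of the threshold, 10 lost and 3 gained a call, and 16 turned their sign. The 4 member probes called higher between positive and cross-breed animals numbered 3 to 5 over 21 alternatives. For positive against Holstein animals, the 1 higher probe became 2 with 75th percentile scaling, quantile normalization, no filter on dim probes and the filter on signals well above background, 0 with the series matrix values, outlier spots kept and all 43 arrays in 1 fit, and 0 to 1 leaving out each animal, and 1 probe was called lower with cyclic loess on every pair. For Holstein against cross-breed animals, 5 were higher with no fold limit. Of the member probes at least 2-fold higher in unknown B, 2 were left with normexp, and 1 lay without overlap with 75th percentile scaling and with quantile normalization.

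Counts over all probes moved most with normexp (1378 of 4597 for positive against cross-breed, 487 of 2911 for positive against Holstein, 1350 of 3361 for Holstein against cross-breed), with no filter (7589 and 5843 for the first 2), with no fold limit (8458, 5950 and 7908) and with cyclic loess on every pair (5638 for positive against Holstein). On shared slides, leaving out each animal gave 0 to 9 calls, with 9 without animal 79. The higher share of the calls was 51.1%, 47.2% and 52.9% in the same order, 69.1%, 82.8% and 35.4% with 75th percentile scaling, 39.1%, 35.7% and 46.1% with quantile normalization, and 33.5%, 28.5% and 55.8% with cyclic loess on every pair. The median change of all probes moved to 0.11, 0.19 and -0.11 with the first of these, and to -0.25, -0.26 and 0.01 with the last.

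Signs turned as follows. Positive against cross-breed gave MYO9B -0.19 and the second MYLIP probe -0.42 with cyclic loess on every pair, and the first MYLIP probe -0.01 with normexp. Positive against Holstein gave MYO18B -0.40, MYO16 -1.92 and the second MYLK probe -0.70 with cyclic loess on every pair, and the second MYLK probe -0.07 with normexp. Leaving out each animal there gave -0.09 to 0.12 for the second MYLK probe and -0.16 to 0.01 for the second MYLIP probe. Holstein against cross-breed gave the first MYLIP probe -0.06 with 75th percentile scaling and -0.06 with normexp, and MYH15 0.22 with normexp. On shared slides, MYO16 gave -0.17 with 75th percentile scaling, -1.87 with cyclic loess on every pair, -0.13 with normexp and -0.08 to 0.53 leaving out each animal, MYO18B gave -0.15 with cyclic loess on every pair, and MYH15 gave -0.39, -0.36, -3.22 and -0.30 with 75th percentile scaling, quantile normalization, cyclic loess on every pair and normexp. The cause was not tested. MYH15 was recomputed without the filter on dim probes under alternatives chosen after seeing the data.

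A random block for slide, or for scan day, changed no member call in the comparisons with or between controls. No slide or scan day held animals of both groups there, so that such a block cannot remove a difference between batches. No paired analysis was possible because the groups consist of different animals. MYO16 and MYH15 lay near background in the cross-breed controls, which limits the precision of their changes.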
